A study of Mus musculus with 2 samples.

Results

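The 10 genes of stem cell homing and niche adhesion were taken from the gene tables of the series by symbol: Cxcl12, Cxcr4, Ackr3, Vcam1, Icam1, Itga4, Itga5, Itgb1, Fn1 and Cd44. All 10 were found among 43346 mouse genes, 21474 of them protein-coding. The tissue was the liver of mouse embryos of the B6NCrl strain, collected 11.5 days into development, and its total RNA was sequenced. Both libraries form 1 group. Replicate 1 came from a pool of 109 embryos and replicate 2 from a pool of unstated size. Each pool mixed male and female embryos, 10 ng of RNA went into each library, and the labels give no treatment, transgene or control group. No contrast between conditions exists, so levels, ratios and transcript shares are described and none is tested. The spread over the 2 pools is the only replicate error.

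At this age the liver is being seeded by blood stem and progenitor cells that arrive through the circulation. Homing of such cells to a niche can use a chemokine and a set of adhesion molecules. Whether seeding of the liver uses each of them was not tested here. CXCL12, secreted by stromal and other niche cells, attracts cells through the receptor CXCR4, while ACKR3 binds the same chemokine and removes it without classical G protein signalling. Adhesion runs through integrins, which pair an alpha with a beta subunit. Alpha4beta1 holds cells to VCAM1 and to a stretch of fibronectin, and alpha5beta1 holds them to the arginine-glycine-aspartate site of fibronectin.

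Levels are in TPM, a measure of transcript abundance relative to the whole library that corrects for gene length and so allows genes to be compared. Values are given for replicate 1 and then replicate 2, and means are ± SD over both (n = 2). Coordinates are on GRCm38, the assembly also named mm10. The libraries held 34344230 and 31477397 estimated counts. Spike-in controls took 14.6% of the TPM in replicate 1 and 11.1% in replicate 2, which scales the TPM of every mouse gene by a different amount in each library. A gene was called detected where neither library had it below a TPM of 1. By that rule every marker was detected for hepatoblasts (8 of 8, led by Afp and Trf), red cell precursors (8 of 8, led by Klf1), endothelium (10 of 10), stellate and mesenchymal cells (11 of 11), stem and progenitor cells (9 of 9) and megakaryocytes (8 of 8). The liver label was thus met by its hepatoblast markers, whose summed level was 9760 and 10922 TPM. Macrophage markers were detected in 9 of 10 cases (Vsig4 at 0 counts), granulocyte and mesothelial markers each in 6 of 7, and limb and body wall markers in 5 of 7, the last summing to 23.0 and 21.7 TPM. A heart muscle list, led by Myl7 and Actc1, summed to 290.2 and 126 TPM, and replicate 1 exceeded replicate 2 at least 2-fold in 10 of its 10 genes.

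The 10 genes spanned from 163 ± 20.5 TPM for Itgb1 to 0.88 ± 0.141 TPM for Cxcr4. Every one but Cxcr4 was detected, 9 of 10 in all. The same rule was met by 56.6% of protein-coding genes and 31.1% of all mouse genes. The median over the 10 genes was 26.4 and 29.4 TPM. Over all protein-coding genes it was 2.82 and 2.87 TPM, and over the 12165 detected protein-coding genes it was 16.2 and 17.3 TPM.

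**Figure D1:**
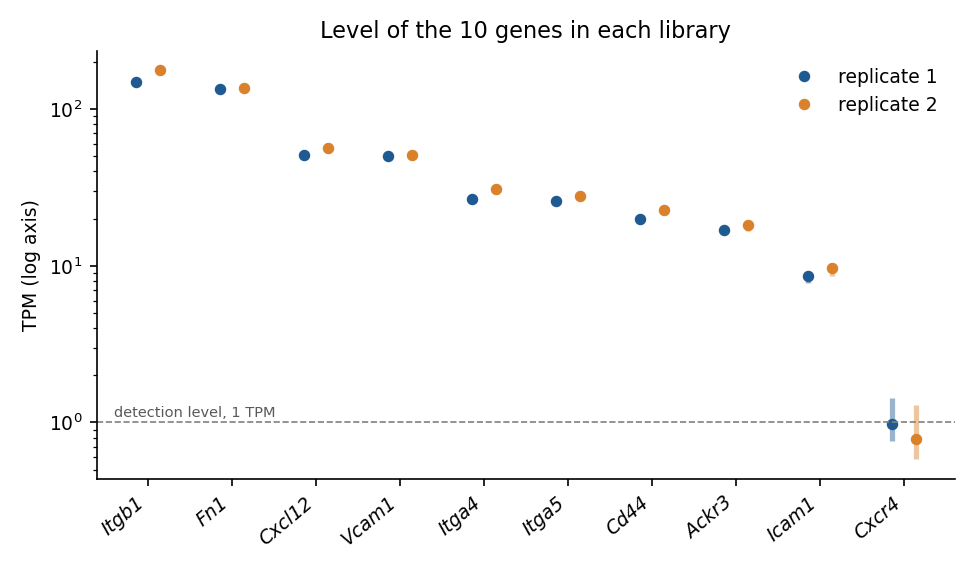
Level of each of the 10 genes in TPM on a log axis, with 1 point per library and the deposited credibility interval as a bar. Itgb1 and Fn1 lie above 100 TPM in both libraries, Icam1 lies just under 10 TPM, and Cxcr4 lies below 1 TPM in both.

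The chemokine was far more abundant than its signalling receptor. Cxcl12 (ENSMUSG00000061353.7, chr6:117168535-117181367, plus strand) had 50.8 and 56.1 TPM, a mean of 53.4 ± 3.79, from 3278 and 3269 counts. The deposited intervals were 47.9 to 51.6 TPM in replicate 1 and 52.7 to 56.8 TPM in replicate 2. They did not overlap on this scale, which the unequal spike-in shares also shift. Cxcl12 stood at percentile 87.7 and 87.8 of protein-coding genes, nearly the same place in both.

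Cxcl12 transcripts share their coding exons up to a common point and then end differently, which gives proteins that differ only at the tail. The alpha form (ENSMUST00000112866.3) has 89 codons, beta (ENSMUST00000112871.3) has 93 and gamma (ENSMUST00000073043.4) has 119. The 3 coding ends are shown from the GENCODE M21 transcripts, 5′ to 3′ on the plus strand of chromosome 6, because they are what separates the forms measured here. Lower case marks the last 24 of the 266 coding bases that all 3 forms share, and capitals mark the bases past that point with the stop codon.
Cxcl12 alpha: gtacctggagaaagctttaaacaaGTAA
Cxcl12 beta: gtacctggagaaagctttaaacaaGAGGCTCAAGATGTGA
Cxcl12 gamma: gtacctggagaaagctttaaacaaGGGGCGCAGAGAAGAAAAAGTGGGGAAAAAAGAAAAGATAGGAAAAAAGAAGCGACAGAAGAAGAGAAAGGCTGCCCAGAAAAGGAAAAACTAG
The capitals of alpha begin at chr6:117173579 inside the exon that carries the shared stretch, those of beta lie at chr6:117178583-117178595, and those of gamma lie at chr6:117176086-117176176, positions that leave out the stop codons. The gamma tail is rich in A and G and, in reading frame, in codons of the basic residues lysine and arginine, the feature by which this form is known to bind heparan sulfate.

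Alpha carried 50.5% and 46.0% of the Cxcl12 level and beta 36.8% and 36.0%. In TPM these were 25.6 and 25.8 for alpha against 18.7 and 20.2 for beta, and the deposited intervals of the 2 forms did not overlap in either library. Gamma carried 4.83% and 6.31%, at 2.45 and 3.54 TPM. Alpha was thus the main form in both libraries and gamma the rarest coding form.

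The remaining Cxcl12 transcript, which the annotation calls a retained intron, carried 7.83% and 11.7% of the gene's TPM. Over the 3 coding forms alone, alpha made 53.4 ± 1.92%, beta 40.4 ± 0.572% and gamma 6.19 ± 1.35% of TPM. The forms differ in length (1878, 3132 and 5627 bases), and without the correction for it the order of alpha and beta turns. By estimated counts beta had 48.9% and 48.3% of the coding forms, alpha 39.4% and 36.2%, and gamma 11.7% and 15.4%. Alpha has 39 bases found in no other Cxcl12 transcript, beta has 0, and gamma has 2456. The retained-intron transcript covers the end of alpha, and the last exon of gamma covers that of beta. So few bases of alpha lie outside the retained-intron transcript, and few of beta lie outside gamma. The reverse does not hold, since the retained-intron transcript has 1016 bases of its own and gamma has 2456. Alpha and beta do not share these ends.

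**Figure D2:**
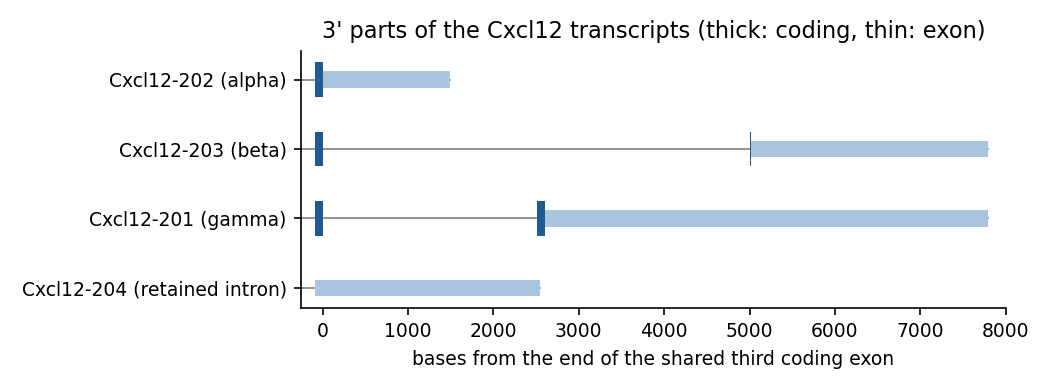
Map of the 3′ parts of the 4 Cxcl12 transcripts, drawn to scale in bases from the end of the shared coding stretch, with coding parts as thick boxes and other exon parts as thin boxes. Alpha ends within the exon that holds the shared stretch, while beta and gamma go on to later exons, the last exon of beta lying within the stretch that the longer last exon of gamma covers.

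Cxcr4, the G protein-coupled receptor through which CXCL12 attracts cells, was close to the limit of the measurement. The gene (chr1:128588199-128592293, minus strand) had 43 counts in replicate 1 and 30 in replicate 2, which were 0.98 and 0.78 TPM. Exact 95% Poisson intervals of those counts run from 31.1 to 57.9 and from 20.2 to 42.8, equal to 0.709 to 1.32 TPM and 0.526 to 1.11 TPM. Both intervals hold 1 TPM, so at this depth it cannot be said on which side of that threshold the gene lies. All of the level was given to 1 of its 2 transcripts.

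Cxcl12 exceeded Cxcr4 by 51.8-fold in replicate 1 and 71.9-fold in replicate 2, a mean log2 ratio of TPM of 5.78 ± 0.31. In a whole tissue, fewer cells that carry a transcript and less of it in each cell cannot be told apart. Genes of the stem and progenitor list, the cells in which Cxcr4 is best known, had a median of 22.5 and 24.9 TPM in the same libraries, led by Kit (36.0 and 46.8 TPM) and Meis1 (34.3 and 37.7 TPM).

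Ackr3, the scavenging receptor (chr1:90203980-90216751, plus strand), had 17.0 and 18.4 TPM, a mean of 17.7 ± 0.969. It exceeded Cxcr4 by 17.3-fold and 23.5-fold, a mean log2 ratio of 4.19 ± 0.29, and lay below Cxcl12 by 2.99-fold and 3.06-fold. Of the chemokine's 2 receptors the scavenger was the more abundant in both libraries. Its main transcript carried 97.8% and 93.7% of it.

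The other chemokine genes were mostly low. Of 35, 14 were detected, with a median of 0.63 and 0.43 TPM, and 8 had 0 counts in both libraries. The highest was Mif, a cytokine that can also bind CXCR4, at 2098 ± 24.6 TPM. Pf4 (686 ± 17.2 TPM) and Ppbp (121 ± 3.72 TPM), chemokines stored in platelets, came next. Among the other 21 chemokine receptors 5 were detected, and none reached Ackr3: the highest were the atypical receptor Ackr1 (12.4 ± 1.27 TPM), the fractalkine receptor Cx3cr1 (4.99 ± 0.552 TPM) and the atypical receptor Ccrl2 (3.73 ± 0.311 TPM).

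Most genes of the machinery around CXCR4 were present at higher levels than the receptor. Of 20 genes for its G proteins, arrestins, receptor kinases and movement effectors, 18 were detected, with a median of 24.4 and 24.3 TPM. The most abundant were the small GTPase Cdc42 (377 ± 37.1 TPM) and the G protein beta subunits Gnb2 (246 ± 2.21 TPM) and Gnb1 (215 ± 5.70 TPM). These proteins serve many receptors. Of 8 proteases known to cleave CXCL12, 6 were detected, led by the membrane metalloprotease Mmp14 (43.0 ± 1.07 TPM) and the carboxypeptidases Cpm (42.7 ± 1.56 TPM) and Cpn1 (42.2 ± 1.69 TPM).

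The counter-receptor for alpha4beta1, Vcam1, was as abundant as the chemokine. Vcam1 (chr3:116109949-116129688, minus strand) had 50.2 and 51.3 TPM, a mean of 50.7 ± 0.721, from 4278 and 3809 counts. Cxcl12 and Vcam1 were not ordered: their log2 ratio was 0.02 in replicate 1 and 0.13 in replicate 2, a mean of 0.07 ± 0.08. The site by which the outermost immunoglobulin domain of VCAM1 binds alpha4 integrins is shown here because it is the contact between 2 of the measured genes. It lies at chr3:116128645-116128716, reads 5′ to 3′ on the minus strand, and has the codons for isoleucine, aspartate, serine and proline in capitals.
Vcam1 integrin site: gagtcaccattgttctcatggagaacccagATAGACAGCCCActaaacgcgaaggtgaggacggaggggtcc
This run of 4 codons occurs 1 time in the Vcam1 coding sequence, and 0.338% of 21877 protein-coding genes in the annotation hold it at least 1 time. Only 1 Vcam1 transcript was in the tables, so no share of forms can be given, including any form that lacks a domain.

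Icam1, which binds integrins of the beta2 class on leukocytes, was lower. The gene (chr9:21015985-21028817, plus strand) had 8.60 and 9.62 TPM, a mean of 9.11 ± 0.721. Vcam1 exceeded it by 5.84-fold and 5.33-fold, a mean log2 ratio of 2.47 ± 0.09. Its beta2 partner, Itgb2, had 14.2 and 15.4 TPM. Vcam1 and Icam1 each overlap an antisense gene on the other strand (1238 and 511 bases), and no source used here says whether the counting used strand.

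Of 14 other adhesion molecules of the immunoglobulin family, 11 were detected, with a median of 17.1 and 18.3 TPM. Cd47, the ubiquitous signal against engulfment, led at 210 ± 17.6 TPM, followed by the red cell adhesion molecule Icam4 at 102 ± 4.32 TPM and the junction protein F11r at 35.2 ± 1.83 TPM. Sele and Selp, selectins on which cells roll along inflamed vessels, were below the detection threshold: Sele had 0.07 and 0 TPM and Selp had 0.60 and 0.64 TPM. Both are named for their class and were chosen after their values were seen. Of the 9 selectins and carriers 5 were detected, the carriers Cd24a (344 ± 33.2 TPM), Cd34 (28.6 ± 1.79 TPM) and Podxl (22.3 ± 0.141 TPM) being the highest.

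Among the integrin subunits, the shared beta chain stood far above both alpha chains. Itgb1, the beta1 subunit (chr8:128685654-128733200, plus strand), had 148 and 177 TPM, a mean of 163 ± 20.5, from 14204 and 14812 counts. It ranked 901 and 805 among the 21474 protein-coding genes, and its main transcript carried 99.5% and 99.2% of it. It had the highest mean of the 10 genes.

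Itga4, the alpha4 subunit that pairs with beta1 for VCAM1 (chr2:79255426-79333123, plus strand), had 26.8 and 30.9 TPM, a mean of 28.8 ± 2.87. Itga5, the alpha5 subunit of the fibronectin receptor (chr15:103344286-103366763, minus strand), had 25.9 and 27.9 TPM, a mean of 26.9 ± 1.41. The 2 alpha chains were not ordered, with log2 ratios of 0.05 and 0.14 and a mean of 0.10 ± 0.07. Itgb1 exceeded Itga4 by 5.53-fold and 5.74-fold and Itga5 by 5.72-fold and 6.35-fold.

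The single coding transcript of Itga4 carried 76.6% and 77.0% of its level, and the rest went to processed transcripts with no coding sequence. On coding transcripts alone Itga4 had 20.5 and 23.8 TPM, below Itga5, with a mean log2 ratio of -0.28. Itga4 also overlaps Cerkl on the opposite strand over 2581 bases, but Cerkl had 19.8 and 14.2 counts in all against 5484 and 5518 for Itga4.

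Beta1 pairs with many alpha chains. The 12 alpha subunits known to pair with it (Itga1 to Itga11 and Itgav) summed to 121 and 129 TPM. Itgb1 was 1.23 and 1.38 times that sum, and Itga4 with Itga5 made 43.7% and 45.7% of it. Some of these alpha chains, such as Itgav, also pair with other beta chains, so the sum is not of beta1 pairs alone.

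Of the 16 other alpha subunits 9 were detected, with a median of 1.91 and 2.18 TPM. The highest were the platelet subunit Itga2b (61.9 ± 0.233 TPM), the vitronectin receptor subunit Itgav (28.3 ± 1.11 TPM) and the laminin receptor subunit Itga6 (21.1 ± 1.03 TPM). Of the 7 other beta subunits 5 were detected, led by Itgb5 (19.4 ± 0.0778 TPM), and all 7 had a lower level than Itgb1. Of 18 genes that switch integrins on or link them to actin 17 were detected, with a median of 41.6 and 42.6 TPM. Rap1b, a GTPase that turns integrins on (280 ± 40.7 TPM), the linker kinase Ilk (197 ± 12.9 TPM) and the blood cell kindlin Fermt3 (116 ± 13.4 TPM) led them.

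Fibronectin, the matrix ligand of both integrins, was the most abundant ligand of the set. Fn1 (chr1:71585520-71653200, minus strand) had 134 and 136 TPM, a mean of 135 ± 1.85, from 19535 and 18519 counts. It exceeded Cxcl12 by a mean log2 ratio of 1.34 and Vcam1 by 2.66-fold in both libraries, and it lay below Itgb1 by 1.11-fold and 1.30-fold. By counts, with no correction for length, Fn1 came before Itgb1.

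Fibronectin is made in forms that differ by 2 cassette exons, EDB and EDA, and by the length of a variable segment called V. Plasma fibronectin, which hepatocytes secrete, is known to lack EDB and EDA, while the cellular forms of embryonic tissue hold them. Both cassettes are shown because the estimated shares of these exons follow. They come from the longest Fn1 transcript of GENCODE M21 (ENSMUST00000055226.8), 5′ to 3′ on the minus strand, with the exon in capitals and 12 bases of each neighbouring exon in lower case.
EDB: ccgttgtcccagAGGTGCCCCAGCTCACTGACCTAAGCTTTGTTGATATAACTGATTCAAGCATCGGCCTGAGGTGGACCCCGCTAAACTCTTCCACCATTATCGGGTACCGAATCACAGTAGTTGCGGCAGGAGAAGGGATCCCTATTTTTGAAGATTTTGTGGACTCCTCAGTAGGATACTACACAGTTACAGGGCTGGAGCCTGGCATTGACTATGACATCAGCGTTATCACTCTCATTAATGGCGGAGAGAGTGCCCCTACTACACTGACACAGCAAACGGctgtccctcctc
EDA: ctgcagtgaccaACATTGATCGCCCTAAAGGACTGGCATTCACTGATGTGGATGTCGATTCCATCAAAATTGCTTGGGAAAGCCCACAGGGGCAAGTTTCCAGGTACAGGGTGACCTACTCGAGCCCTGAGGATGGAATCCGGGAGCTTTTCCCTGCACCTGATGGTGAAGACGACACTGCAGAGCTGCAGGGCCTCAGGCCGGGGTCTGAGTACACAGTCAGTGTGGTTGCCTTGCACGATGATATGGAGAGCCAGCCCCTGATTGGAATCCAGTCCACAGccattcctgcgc
EDB has 273 bases (91 codons) at chr1:71613763-71614035 and EDA has 270 bases (90 codons) at chr1:71603660-71603929. Neither length shifts the reading frame.

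Fn1 had 17 transcripts in the tables, 7 of them full-length coding forms. The longest transcript, which holds EDB, EDA and the longest V segment, carried 41.3% and 41.0% of the gene's TPM, at 55.3 and 56.0 TPM. Next came a transcript annotated as a retained intron (ENSMUST00000185408.2), which carried 33.9% and 31.5%, at 45.4 and 43.0 TPM. These 2 transcripts were the only ones at 5% or more in both libraries, and all protein-coding transcripts together made 50.9% and 57.1% of Fn1.

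Among the full-length coding forms, transcripts with EDB made 81.7% and 71.9% of TPM, a mean of 76.8 ± 6.89%. EDB lies in 1 of the 7, the longest, and its 273 bases are in no other transcript of the tables. Transcripts with EDA made 86.8% and 78.5%, a mean of 82.6 ± 5.88%. Both shares were lower in replicate 2.

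The EDA share depends on that retained-intron transcript, which spans the place of EDA and lacks it. Over all transcripts that span the exon, those with EDA made 52.0% and 50.6% of TPM. The retained-intron transcript shares 3396 of its 4022 bases (84.4%) with the longest coding one and has 612 bases in no other transcript. Over all transcripts that span EDB, those with it made 73.8% and 66.7%.

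The length of the V segment decides whether fibronectin carries the connecting segment, a stretch that binds alpha4beta1. The V120 form, with 120 more codons than V0, made 87.7 ± 2.89% of full-length coding TPM, V95 made 6.53 ± 2.28% and V0 made 5.77 ± 0.606%. The longest transcript gave 55.3 and 56.0 of the 60.8 and 66.7 TPM with V120, so the EDB, EDA and V120 shares are not independent. The V95 and V0 transcripts with counts have 0 bases of their own. Their deposited intervals were wide, 1.77 to 6.81 TPM (V95) and 2.69 to 6.95 TPM (V0) in replicate 2. V shares were not computed over other transcripts. V120 differs from V95 by 75 bases (25 codons) at chr1:71597673-71597747, the connecting segment that is known to bind alpha4beta1 through leucine, aspartate and valine. A site of each integrin is shown with its codons in capitals, 5′ to 3′ on the minus strand. These sites pair this ligand with Itga4 and Itga5.
Fn1 connecting segment: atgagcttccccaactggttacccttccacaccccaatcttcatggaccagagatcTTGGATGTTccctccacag
Fn1 arginine-glycine-aspartate site: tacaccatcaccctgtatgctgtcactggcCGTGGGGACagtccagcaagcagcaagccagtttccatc
The connecting segment is kept in 3 of the 7 full-length coding transcripts. The arginine-glycine-aspartate site, at chr1:71606716-71606784 and bound by alpha5beta1, is kept in 7 of 7. The same codons occur a further time inside the V segment, at chr1:71597413-71597481, kept in 5 of 7. Such codon runs are short: 7.40% of 21877 protein-coding genes hold arginine-glycine-aspartate at least 1 time and 12.7% hold leucine-aspartate-valine.

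**Figure D3:**
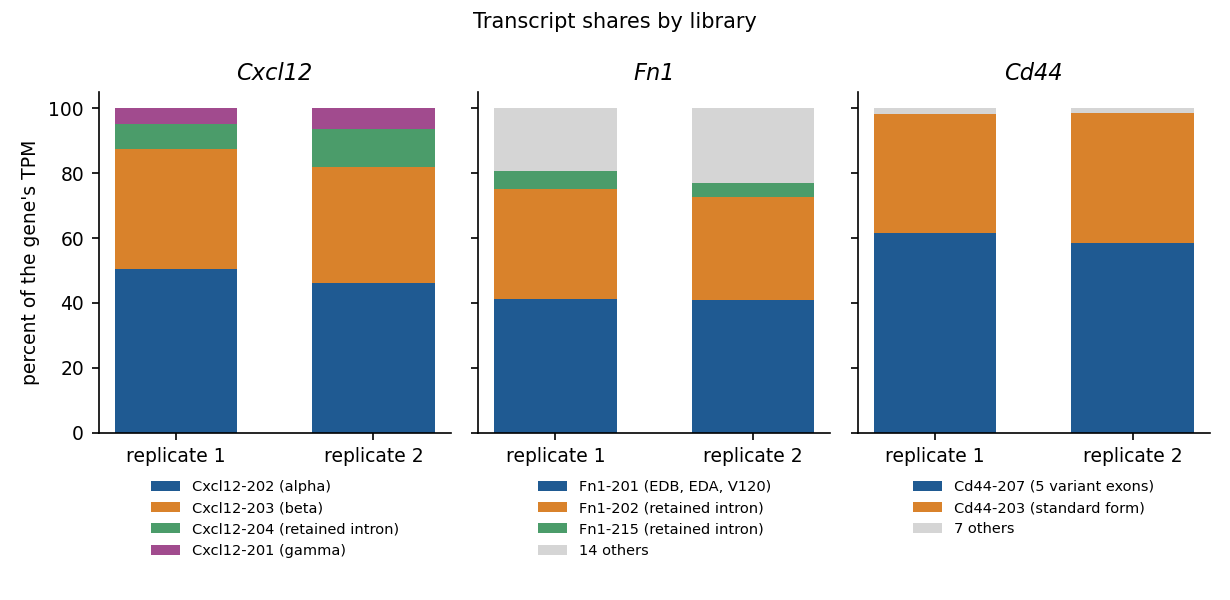
Stacked bars of the percent of each gene's TPM given to its transcripts, 1 bar per library, for Cxcl12, Fn1 and Cd44. The largest piece is the same transcript in both libraries for each gene: the alpha form of Cxcl12, the longest coding form of Fn1 and the form of Cd44 with variant exons.

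Of 17 other matrix proteins that bind integrins, 16 were detected, with a median of 13.3 and 13.7 TPM. The liver-made plasma and matrix protein vitronectin, Vtn, led at 169 and 199 TPM, followed by the collagen chain Col1a1 at 161 ± 10.9 TPM and the elastic fibre protein Emilin1 at 73.9 ± 0.163 TPM. Vtn and Col1a1 were the only genes of this list with a mean above that of Fn1. Vtn was higher in replicate 2 and Col1a1 in replicate 1.

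Cd44, the cell surface receptor for hyaluronan, a matrix sugar, was in the lower part of the order. Cd44 (chr2:102811141-102901665, minus strand) had 19.8 and 22.6 TPM, a mean of 21.2 ± 1.97. Its main transcript (ENSMUST00000111194.3) carried 61.7% and 58.4% of TPM and holds 5 of the 10 variant exons of the annotation (636 bases). The standard form (ENSMUST00000099673.4), with 365 codons and no variant exon, carried 36.7% and 40.1%.

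Transcripts with variant exons made 61.2 ± 2.20% of the coding TPM of Cd44. The main transcript also has a 3′ end that is 1406 bases longer than that of the standard form, and the 2 coding transcripts with that end made 60.9 ± 2.41%. Since both features sit in the same transcript, these shares cannot tell them apart. It has 40 bases in no other Cd44 transcript, and the standard form has 0.

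Of 12 matched genes of hyaluronan synthesis and binding 8 were detected, with a median of 3.04 and 3.17 TPM. The intracellular hyaluronan binder Hmmr (74.0 ± 5.50 TPM), the hyaluronidase Hyal2 (71.3 ± 4.13 TPM) and the endothelial receptor Lyve1 (20.2 ± 0.665 TPM) were the highest. The 3 synthases were below the detection threshold, with means of 0.425 TPM for Has2, 0.245 TPM for Has1 and 0.06 TPM for Has3. They are named for their role and were chosen after their values were seen.

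**Figure D4:**
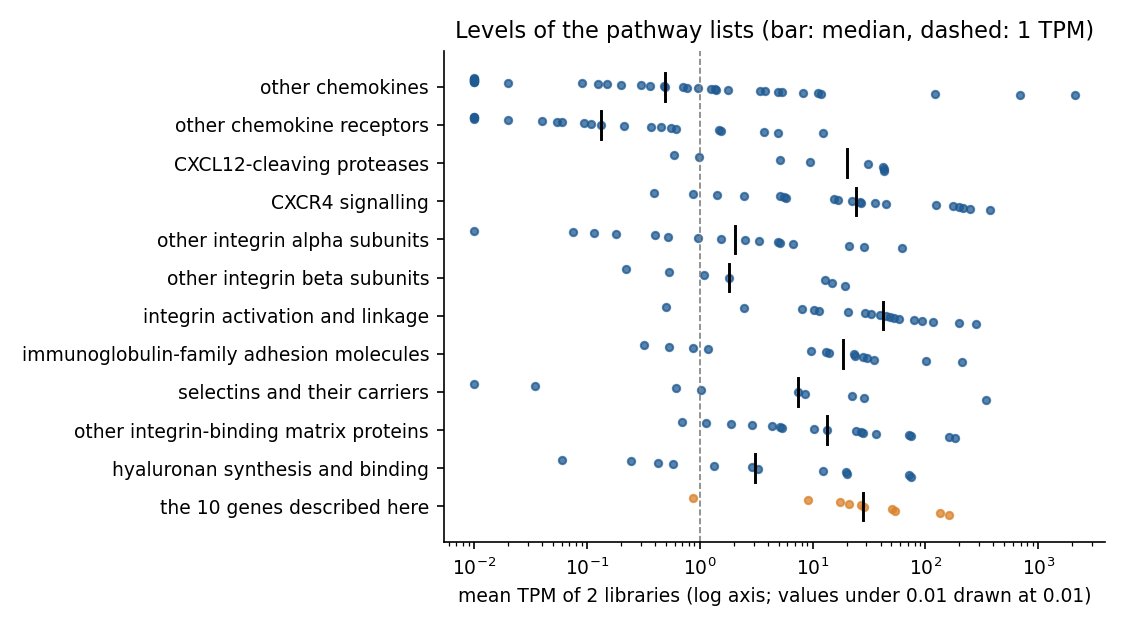
Mean TPM of the genes of each pathway list on a log axis, with 1 point per gene (values under 0.01 TPM drawn at 0.01), a bar for the list's median and the 10 homing and adhesion genes beside them. The other chemokines and chemokine receptors have medians below 1 TPM, while the integrin activation and CXCR4 signalling lists have medians above 20 TPM.

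Of the 45 pairs that the 10 genes form, 43 were ordered: their order was the same in replicate 1 and replicate 2, the deposited intervals stayed apart in each, and the mean log2 ratio was larger than its change from one library to the other. The pairs without an order were Cxcl12 with Vcam1 and Itga4 with Itga5. From the top the order was Itgb1, Fn1, Cxcl12 beside Vcam1, Itga4 beside Itga5, Cd44, Ackr3, Icam1 and Cxcr4. The widest step between neighbours was from Icam1 down to Cxcr4, 8.78-fold and 12.3-fold, and the narrowest ordered steps were Itgb1 over Fn1 and Cd44 over Ackr3, each 1.20-fold on mean TPM. The order is that of gene totals. On coding transcripts alone Fn1 had 68.1 and 77.9 TPM and Cxcl12 had 46.8 and 49.6 TPM, below Vcam1, while Itgb1 had 148 and 176 TPM.

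The libraries differed little in these genes. After scaling the counts for depth and composition, 0 of the 10 genes were at least 2-fold apart between the libraries, beside 4.28% of the 16558 genes whose mean count was at least 10. The log2 ratio of replicate 1 over replicate 2 ran from -0.17 for Itgb1 to 0.40 for Cxcr4, with a median of -0.06 over the 10. At a share of 4.28%, 0 of 10 does not set these genes apart from others. The median size of the ratio was 0.08 on the log2 scale, beside 0.14 over all genes tested. Over the 11519 protein-coding genes whose mean count was at least 100, as in all of the 10 but Cxcr4, it was 0.11.

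In 4 genes the ratio had a 95% counting interval that left out 0, and all 4 of these were higher in replicate 2. Itgb1 had -0.17 (-0.21 to -0.14), Itga4 -0.12 (-0.18 to -0.07), Cxcl12 -0.11 (-0.18 to -0.04) and Fn1 -0.04 (-0.06 to -0.01). These intervals cover counting error only and are narrow because the counts are high. The same ratio had an SD of 0.20 over the 11519 protein-coding genes whose mean count was at least 100, so each of the 4 lay within the spread of other genes.

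The ratio of Cxcr4, 0.40, had an interval from -0.30 to 1.13, so its direction was not detectable at this depth. On scaled counts 7 of the 10 genes were higher in replicate 2, and on TPM 9 were, since Vcam1 and Ackr3 change direction between the 2 scales. Red cell precursor markers moved with the larger group: 7 of 8 were higher in replicate 2, their sum being 1205 and 1426 TPM and their median log2 ratio -0.15. Over all genes tested the median log2 ratio was -0.003. It was also negative for macrophage (-0.08), hepatoblast (-0.07), stem and progenitor (-0.01) and megakaryocyte (-0.004) markers. It was positive for mesothelial (0.19), limb and body wall (0.12), stellate and mesenchymal (0.06), granulocyte (0.03) and endothelial (0.02) markers. The heart muscle list moved furthest the other way, with a median log2 ratio of 1.48. The part of any list in the differences of the 10 genes was not tested.

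**Figure D5:**
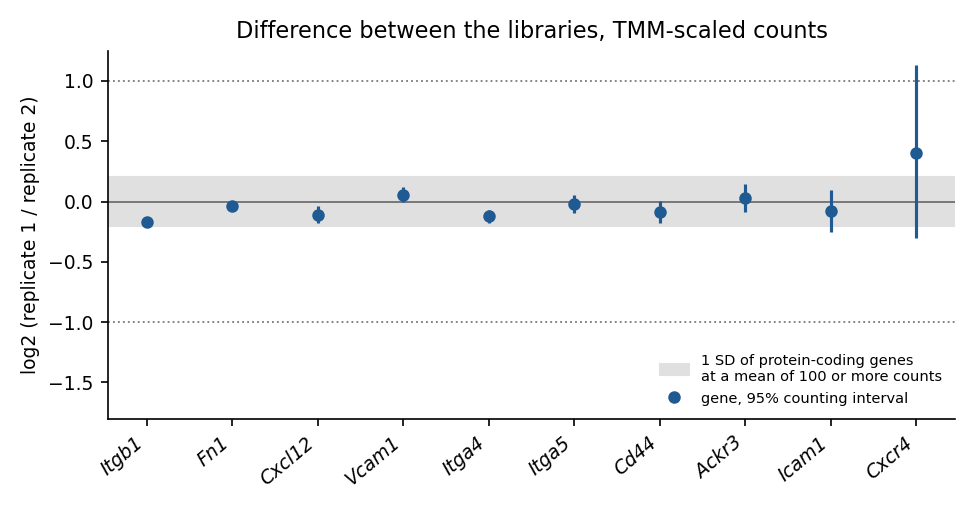
Log2 ratio of replicate 1 over replicate 2 for each of the 10 genes, from scaled counts, with 95% counting intervals as bars, dotted lines at a 2-fold difference and a grey band of 1 SD over the 11519 protein-coding genes. Every point lies between the dotted lines, Itgb1 is lowest at -0.17, and the interval of Cxcr4 crosses 0 and reaches past 2-fold.

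The tables list 46 transcripts for the 10 genes, 17 of which carried 5% or more of their gene in both libraries. Vcam1, Icam1 and Itga5 had 1 transcript each. The main transcript differed between the libraries in 0 of the 6 genes with several transcripts and at least 10 TPM. Among 5727 protein-coding genes that meet the same conditions it differed in 5.71%.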

How the data were processed

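Total RNA of 2 liver pools of 1 group was measured by RNA-seq. Per the labels, reads were assigned on mm10 with GENCODE M4. No source used here names the aligner, the quantifier, a version or the use of strand. Values deposited by the authors were estimated counts per gene and transcript, TPM relative to all features with spike-ins included, and the percent of a gene's TPM given to each transcript. A credibility interval stands beside each TPM, per the file headers; its level is not stated, and it is centred on a posterior mean, so a TPM can lie outside it (Itgb1).

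The 10 genes and all lists were chosen with earlier results of these data known. All 10 genes are named, with up to 3 genes of highest mean TPM per pathway list and up to 2 per marker list; exceptions are stated. Results of some genes that this rule could name are left out here. Symbols, positions and sequences came from GENCODE M21 (GRCm38), matched by Ensembl identifier for 42462 of 43346 genes. The transcript lengths of 3 genes (Vcam1, Icam1, Itga5) differ between the tables and M21. Spike-ins (97) and 26248 numbered features were left out of all but the deposited TPM. Mouse genes held 31721267 and 29750192 counts.

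A gene was detected where its TPM was at least 1 in each library. Ratios between genes used TPM plus 0.1. Ratios between libraries used counts scaled by TMM factors from edgeR 4.0.16 (R 4.3.3), plus 0.5 counts, for genes at a mean of 10 or more, with exact 95% binomial intervals. Estimated counts were rounded for edgeR and DESeq2. They cover counting error alone, because PCR copies of a molecule could not be told apart. With 1 group of 2 libraries the smallest exact p is 0.5, and no test was made; the spread between the pools may be technical. Scripts were tested on simulated data. Alternatives were DESeq2 1.42.0 size factors, total counts, other pseudocounts and thresholds, TPM over mouse genes alone, posterior mean TPM, shares of counts, each library alone and, chosen after seeing the data, coding transcripts alone. Python 3.11.15 and pandas 2.3.3 did the other calculations.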

Additional observations from a re-analysis of the deposited data

How the results depend on the processing

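The number of genes detected (9 of 10) moved to 10 at a TPM of 0.5 and 8 at a TPM of 10, and the count of genes at least 2-fold apart between the libraries was 0 under every scaling, pseudocount, filter and fold tried. The median over the 10 genes, 27.9 TPM, was 32.0 TPM with TPM taken over mouse genes alone and 24.5 TPM with protein-coding transcripts alone, an alternative chosen after seeing the data. It ran from 26.4 to 29.4 TPM with each library alone, where 9 genes were detected and 18 to 19 transcripts carried 5% or more. Transcripts counted as present were 17 at a share of 5%, 27 at 1% and 13 at 10%. Estimated counts, with no length correction, turned the log2 ratio of Vcam1 over Itga4 to -0.45 (0.82 in TPM) and that of Itgb1 over Fn1 to -0.39 (0.26 in TPM). On coding transcripts alone Itgb1 over Fn1 was 1.14 and Fn1 over Vcam1 was 0.52. Leaving out each library aside, 110 alternative values of single genes, pairs and transcripts were computed. Of these, 44 kept their sign but moved by more than 1 SD, taken between the libraries or, for library ratios, over genes. With a pseudocount of 1 TPM, for example, Cxcl12 over Cxcr4 was 4.86 (5.78). A further 61 stayed within that SD, and 5 changed sign against the value reported. Besides those 2 pairs they were Itga4 over Itga5, at -0.28 on coding transcripts alone (0.10), and, on TPM, the library ratios of Ackr3 at -0.11 (0.03) and Vcam1 at -0.03 (0.06). Depth limits Cxcr4, with 43 and 30 counts, and few bases in 1 transcript alone limit the shares of Fn1 and Cd44. In Cxcl12 few bases of alpha lie outside the retained-intron transcript and few of beta lie outside gamma. The retained-intron transcript and gamma have 1016 and 2456 bases of their own. No paired analysis was possible because both libraries belong to 1 group.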
